A study of Mus musculus with 4 samples.

Results

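Kinesins are motor proteins that bind microtubules and turn ATP hydrolysis into movement along them or into the disassembly of their ends. All genes whose symbol is Kif or Kifc followed by a digit in the array's probe annotation were taken, which gave 41 kinesin genes of 18193 genes named by a probe set. Their RNA was measured in mouse embryonic 3T3 fibroblasts, an immortal line, on 4 Affymetrix Mouse Genome 430 2.0 arrays with 1 array per group. All cells had grown for 24 h at low density and had then spent a night in 0.5% serum in place of the normal 10%. The basal cells were harvested at that point, and the others were harvested after 0.5, 2 or 12 h with tumour necrosis factor (TNF), an inflammatory cytokine. The TNF concentration was 10 ng/ml at 0.5 and 12 h. The protocol of the 2 h cells names none and repeats that of the basal cells, so their title and source name place them at 2 h of TNF. The cells are 1 line, and whether the arrays came from separate cultures is not given in the sources used here.

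In dividing cells a set of kinesins builds the spindle, moves the chromosomes and splits the cell, and the genes of these motors are transcribed mainly in the G2 and M phases. Other kinesins carry vesicles, mitochondria and protein complexes outward along microtubules at every stage of the cell cycle, and the heterotrimeric kinesin-2 also builds cilia. Fibroblasts use both kinds. The comparison made here set 6 mitotic motors (Kif11, Kif20a, Kif23, Kif2c, Kif4 and Kif22) beside 3 transport motors (Kif1b, Kif5b and Kif3a) and asked whether the RNA of the 2 kinds moved together under TNF.

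Each gene is given by its probe set of highest mean log2 signal. The signal is an array intensity on a linear scale, and a log2 ratio compares the signals of 2 arrays, so that -1 means 2-fold lower. Signals below 9.07, the 30th percentile of all values, were raised to this floor. In the text "rose" and "fell" mean a ratio of at least 2-fold. With 1 array per group no spread between replicates exists, 0 tests were run, and no difference has a p-value. The design holds no array of cells kept equally long in low serum without TNF, so TNF and the added time in low serum cannot be told apart at any time. The median signal ran from 22.1 on the basal array down to 19.8 at 12 h, and the median log2 ratio over all genes analysed was -0.03, -0.09 and -0.14 at 0.5, 2 and 12 h. Scaling the arrays by median centring, quantile normalization or loess moved that median to 0, so small ratios turn sign with the scaling. The 3' to 5' signal ratio of actin, a sign of RNA integrity, lay between 1.21 and 1.26, with the lowest value on the basal array and the highest at 12 h. Nfkbia, Tnfaip3, Cxcl1 and Ccl2, genes known to answer to TNF, were all higher than basal by at least 2-fold at every time. Of 10 fibroblast markers 9 reached a signal of 102, the 75th percentile of all values, which is called the higher floor below. Their summed signal stayed between 41028 and 42019. Of the epithelial, leukocyte and endothelial markers on the array 0 reached it. Of 5 macrophage and leukocyte markers 3 were above the floor (Csf1r, at 54.6 to 69.3, Adgre1 and Cd68), with a summed signal of 112 to 121, and Ptprc and Cd3e lay under it on all 4 arrays. The epithelial sum was 85.0 to 107 and the endothelial sum 49.1 to 65.9. The fibroblast marker Thy1 peaked at 14.6.

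All 6 mitotic motors stood below basal at 12 h, and 3 of them, Kif23, Kif11 and Kif20a, fell by at least 2-fold. Of the 7314 genes that reached the higher floor 75.6% were below basal at 12 h and 1.72% fell, and of all 16274 genes analysed 63.0% and 5.18%. In RNA from a whole culture, fewer cells in division and less RNA per cell cannot be told apart. Kif23 (probe set 1455990_at), the motor of the centralspindlin complex that bundles midzone microtubules for cytokinesis, had signals of 403, 370, 308 and 135, given here and below in the order basal, 0.5, 2 and 12 h. Only its 12 h array stood far from the others, at a log2 ratio of -1.58, or 2.98-fold lower. Kif11 (1435306_a_at), the kinesin-5 that pushes spindle poles apart, had signals of 255, 236, 160 and 88.7. Its signal was already lower at 2 h (log2 ratio -0.67) and was 2.87-fold lower at 12 h (-1.52). Kif20a (1449207_a_at), which takes the chromosomal passenger complex to the midzone, had signals of 583, 491, 418 and 218 and was 2.67-fold lower at 12 h. Among the 7314 genes that reached the higher floor on an array, Kif23, Kif11 and Kif20a held ranks 30, 34 and 48 from the lowest 12 h ratio.

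By the probe sets that stand for them, the other 3 mitotic motors stayed within 2-fold of basal. Kif2c (1437611_x_at), which disassembles microtubule ends at kinetochores, had signals of 430, 414, 356 and 241 and a log2 ratio of -0.83 at 12 h. Kif4 (1450692_at), a chromokinesin that works with Prc1 at the midzone, had signals of 228, 240, 227 and 129, so that its first 3 arrays were alike and the 12 h array was lower, at -0.82. Kif22 (1437716_x_at), a chromokinesin that pushes chromosome arms toward the spindle equator, had signals of 719, 712, 606 and 438 and a 12 h ratio of -0.72. The order within the set at 12 h was thus Kif23, Kif11, Kif20a, Kif2c, Kif4 and Kif22, and the gap between Kif20a (-1.42) and Kif2c was wider than any gap between other neighbours. Over probe sets with a signal of 256 to 512, the scaled median absolute deviation of the 12 h ratio was 0.29 (log2, across 2722 probe sets). It was 0.32 from 128 to 256 and 0.25 from 512 to 1024. This spread holds real changes as well as array noise, and by it Kif2c, Kif4 and Kif22 differ little from each other.

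The kinesin promoters were read for the CHR (cell cycle genes homology region). Through this hexamer many G2/M genes are known to be held silent outside division. The mitotic motors were not alone in being below basal at 12 h, as all 3 transport motors were too. RefSeq promoter windows (GRCm38.p6, from 250 bases before to 50 after the start site) were found for 33 of the 41 genes, and they were searched on both strands for TTTGAA. The windows of Kif11, Kif23, Kif22, Kif4 and Kif2c are shown from base -120 to base 30, 5′ to 3′ in the direction of the gene. Capitals mark the CHR, which reads TTCAAA where it lies on the other strand. The Kif3a window, from a transport motor, is shown for contrast and has no match.
Kif11: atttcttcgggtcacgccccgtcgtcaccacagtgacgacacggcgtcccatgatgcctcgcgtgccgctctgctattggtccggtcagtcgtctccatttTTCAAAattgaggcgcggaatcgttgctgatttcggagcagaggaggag
Kif23: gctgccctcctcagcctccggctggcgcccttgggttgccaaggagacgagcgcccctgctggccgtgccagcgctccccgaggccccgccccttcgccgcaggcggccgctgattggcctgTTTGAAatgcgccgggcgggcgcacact
Kif22: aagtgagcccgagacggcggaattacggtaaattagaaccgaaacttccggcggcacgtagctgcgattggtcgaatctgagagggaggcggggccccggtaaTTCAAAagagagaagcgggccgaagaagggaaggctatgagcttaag
Kif4: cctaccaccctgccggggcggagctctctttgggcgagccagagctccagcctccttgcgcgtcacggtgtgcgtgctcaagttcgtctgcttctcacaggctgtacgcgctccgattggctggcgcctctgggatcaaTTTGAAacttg
Kif2c: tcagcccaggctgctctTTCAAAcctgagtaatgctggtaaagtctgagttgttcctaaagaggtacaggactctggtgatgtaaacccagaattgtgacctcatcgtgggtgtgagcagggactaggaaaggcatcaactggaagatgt
Kif3a: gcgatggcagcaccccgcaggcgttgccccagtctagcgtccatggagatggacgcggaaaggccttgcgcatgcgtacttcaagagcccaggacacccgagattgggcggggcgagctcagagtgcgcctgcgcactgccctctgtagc
They lie at chr19:37376262-37376411 (plus strand), chr9:61946770-61946919 (minus), chr7:127042391-127042540 (minus), chrX:100625945-100626094 (plus), chr4:117178743-117178892 (minus) and chr11:53567249-53567398 (plus).

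All 5 mitotic motors with a window held a CHR, against 17.9% of all 32851 promoter windows. Kif20a, the remaining mitotic motor, had no window, and neither did the transport motor Kif5b. Of the 6 other kinesins of cell division 5 held one, namely Kif14, Kif15, Kif18b, Kif20b and Kifc1. Kif18a held none. Of the 2 transport motors with a window, Kif1b and Kif3a, 0 held one. Outside these groups a CHR was found in 1 of 9 other transport kinesins (Kif1a, in 1 of its 2 windows), in 2 of 10 kinesins of cilia, signalling and other roles (Kif26b and Kif27) and in Kifc5b, which makes 14 of 33 kinesins. Kif2a and Kif2b, which were counted with cilia, signalling and other roles rather than with cell division, held none. The match began within 30 bases of the start site in 4 of the 5 mitotic motors, at base -19 in Kif11, -17 in Kif22, 3 in Kif23 and 20 in Kif4, and at -103 in Kif2c. This narrower span was chosen after the matches were seen, and 3.14% of all windows held a CHR there. The same span held one in 4 of the 6 other kinesins of cell division, in Kif26b and in Kifc5b, which makes 10 of 33 kinesins. Kif22 had a second match, at -215. A CCAAT box, the site known for NF-Y, was found as CCAAT on either strand in 4 of the 5 mitotic and in both transport windows, against 37.4% of all windows. In 0 kinesin windows did a CCAAT match and a CHR share a base. Among kinesins at the higher floor, the 12 h ratios of 7 with a CHR ran from -1.58 to -0.54. Those of 8 without one ran from -0.95 (Kif18a) to -0.13, so the ranges overlapped, and a link was not tested. These matches describe letters in a window, and binding was not measured.

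**Figure D1:**
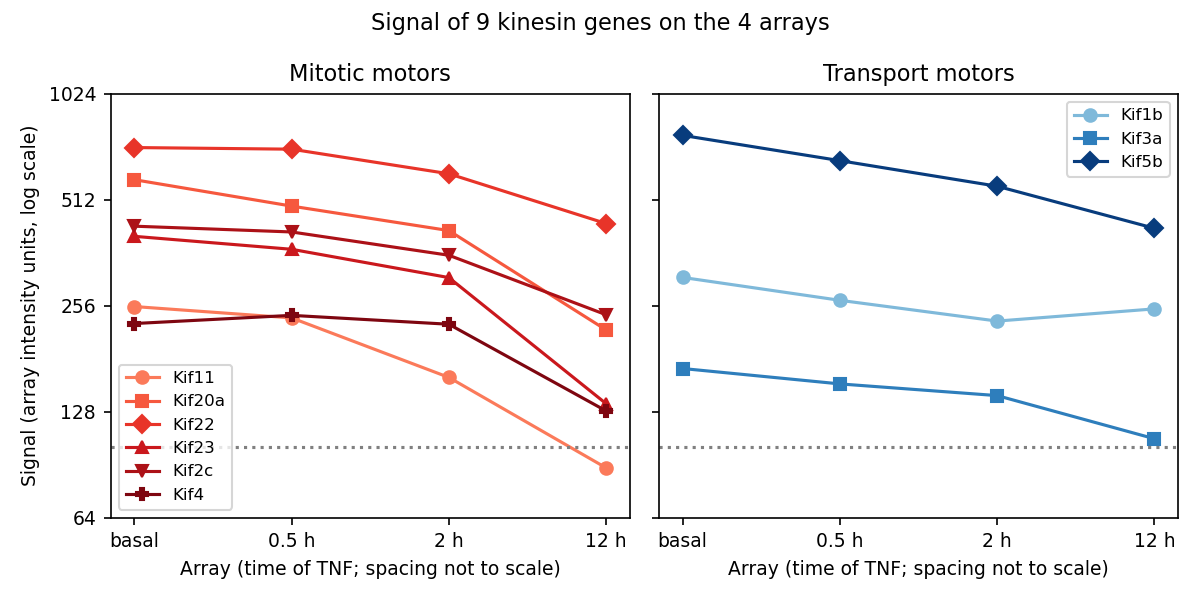
Signal (array intensity units, log scale) of the 6 mitotic motors and the 3 transport motors on the 4 arrays, 1 point per gene and array, with lines joining the arrays of a gene and a dotted line at the higher floor of 102. The mitotic lines drop between 2 and 12 h, Kif23 from 308 to 135. Of the transport lines, Kif5b drops from 559 to 424 and Kif3a from 142 to 107, while Kif1b goes from 231 to 251.

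The 3 transport motors stood below basal as well, by less at 12 h, and 0 of them fell by 2-fold. Kif5b (1418429_at), the heavy chain of conventional kinesin that carries mitochondria and vesicles in most cells, had signals of 779, 660, 559 and 424. Each array was lower than the one before, and its 12 h log2 ratio of -0.88 lay between those of Kif20a and Kif2c. Kif3a (1420375_at), a kinesin-2 subunit needed to build cilia, had signals of 170, 154, 142 and 107 and a 12 h ratio of -0.66. Kif1b (1455182_at), a kinesin-3 that carries mitochondria and synaptic vesicle precursors, had signals of 308, 265, 231 and 251. Its lowest array was that of 2 h, and its ratio was -0.41 there and -0.30 at 12 h. The ranks of Kif5b, Kif3a and Kif1b among the 7314 genes were 288, 664 and 2797.

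The 2 kinds of motor differed in timing. At 0.5 h the median log2 ratio was -0.08 for the mitotic motors (range -0.25 to 0.08) and -0.22 for the transport motors (-0.24 to -0.15). At 2 h the medians were -0.33 (-0.67 to -0.01) and -0.41 (-0.48 to -0.26). Up to 2 h, then, the mitotic median was not the lower of the 2, and the ranges overlapped. At 12 h the medians were -1.13 (-1.58 to -0.72) and -0.66 (-0.88 to -0.30), a difference of -0.46, and 3 of the 6 mitotic motors lay below every transport motor. Kif5b lay below Kif2c, Kif4 and Kif22, so the ranges overlapped at 12 h too. In the step from 2 to 12 h they did not. The mitotic motors changed by -0.84 at the median (-1.19 to -0.47) and the transport motors by -0.40 (-0.41 to 0.12). All 6 mitotic motors lay below all 3 transport motors, with Kif22 (-0.47) and Kif3a (-0.41) the closest pair. In that step only Kif23 passed 2-fold among the 9, and 3.13% of all genes analysed fell by as much.

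A shift shared by all genes of an array does not alter these differences. The difference of medians at 12 h lay between -0.72 and -0.39, and that of the step between -0.55 and -0.34, under the 9 alternatives that give a ratio. Of these, 3 floor settings (20th percentile, 50th percentile, none) and median centring leave both differences as they are by their construction, since all 9 genes lie above those floors and centring shifts them alike. In each of the 10 settings, the reported one included, all 6 mitotic and all 3 transport motors were below basal at 12 h. With median centring, quantile normalization or loess, the 2 h value of Kif4 turned from just below basal to just above it, and the 2 h values of the other 5 mitotic motors stayed below. The rule that chose these genes was written with results of these data known, and genes of 1 array are not replicates, so the separation is a description of these 4 arrays.

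**Figure D2:**
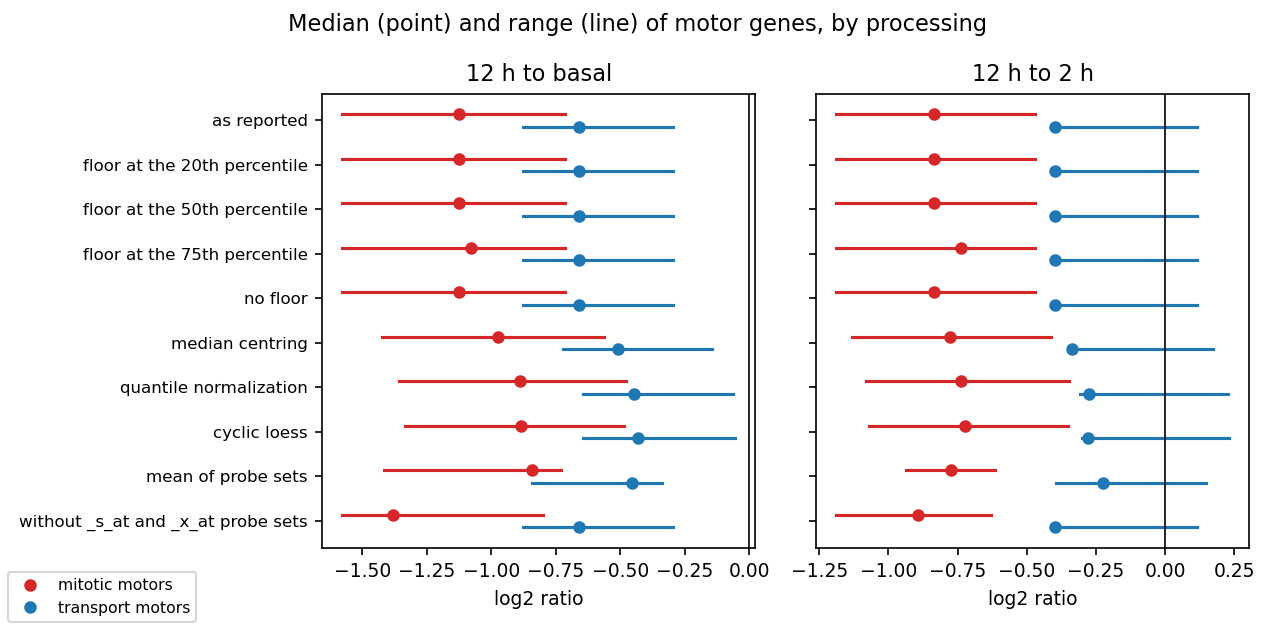
Median (point) and range (line) of the log2 ratio of 6 mitotic motors (red) and 3 transport motors (blue) for 12 h to basal and for 12 h to 2 h, under the reported processing and 9 alternatives. In the right panel the red and blue ranges do not overlap. The settings with a floor below the 75th percentile, or with none, leave the values as reported, and median centring shifts both ranges alike.

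The probe sets of a gene did not all give the same size of change. They read the RNA of 1 gene on the same arrays, so counts of probe sets are not counts of separate genes. Of the 7314 genes at the higher floor 75.6% were below basal at 12 h and 1.72% fell, with signals raised to that floor. Raising signals in this way makes falls smaller. The probe set ratios below were taken with no floor, so their counts past 2-fold cannot be set directly against the 1.72%. Of 13 probe sets of the mitotic motors that reached the higher floor, all 13 were below basal at 12 h and 7 passed 2-fold, with a median log2 ratio of -1.07 (-1.58 to -0.62). Of 11 such probe sets of the transport motors all 11 were below basal and 2 passed 2-fold, with a median of -0.60 (-1.19 to -0.08). Both of those 2 were Kif5b. Its 1418430_at, with signals of 792, 781, 538 and 348, gave -1.19, whereas its 1418428_at, with 324, 391, 333 and 307, gave -0.08. The RNA of Kif5b was therefore 2-fold lower or close to basal depending on the probe set, while 4 of its 5 bright probe sets gave -0.88 or less. In the step from 2 to 12 h the bright probe sets of the 2 kinds overlapped, from -1.20 to -0.45 for mitotic and from -0.63 to 0.43 for transport motors.

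Kif2c showed the same kind of split. Its 1449060_at, with signals of 190, 197, 143 and 74.96, gave -1.34, and 1454221_a_at gave -0.62. The probe sets that stand for Kif2c and Kif22 end in _x_at, which marks probes that may match other transcripts. Without probe sets ending in _s_at or _x_at, an alternative added after the values were seen, Kif2c passed 2-fold and the difference between mitotic and transport medians at 12 h was -0.72. Kif22 gave -0.72, -0.80 and -1.07 on its 3 probe sets, so that 1451128_s_at passed 2-fold. Kif11 gave -1.52, -1.14 and -0.92 on its 3 probe sets, and the 2 bright probe sets of Kif23 gave -1.58 and -1.35. The remaining probe set of Kif23, 1450827_at, stayed at or below a signal of 15.0 and gave 0.73.

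**Figure D3:**
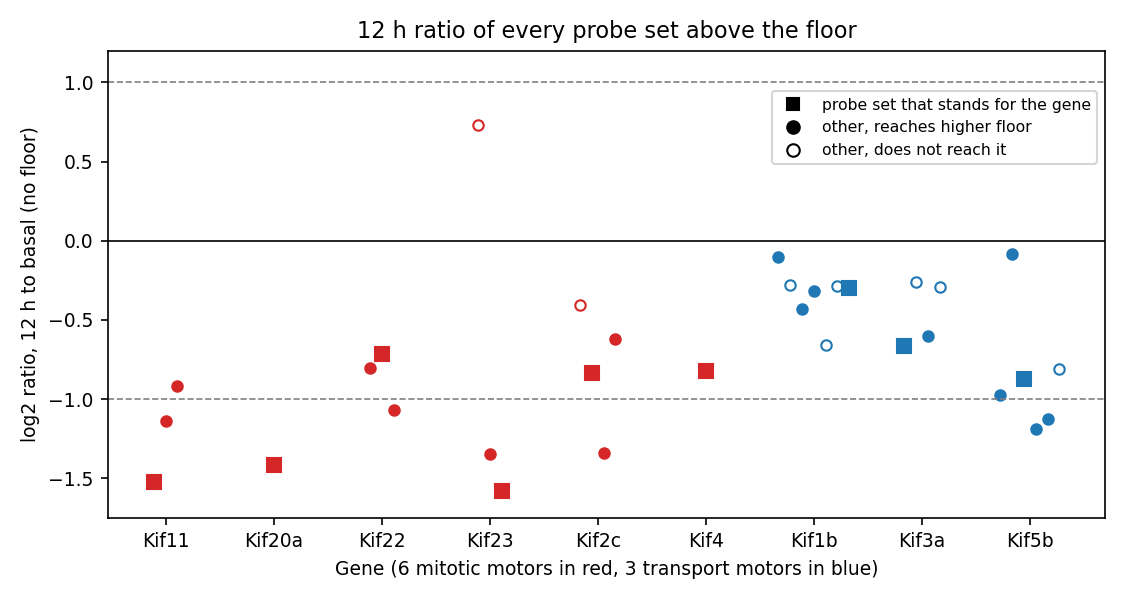
Log2 ratio of 12 h to basal, with no floor, for every probe set above the floor of the 6 mitotic motors (red) and 3 transport motors (blue). Squares stand for the gene, filled circles reach the higher floor and open circles do not, and the filled points of Kif5b run from -1.19 to -0.08.

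The other kinesins of cell division were lower at 12 h by less than 2-fold where their signal was clear. Kif18a, which damps the movement of chromosomes at the metaphase plate, had signals of 147, 114, 108 and 76.4 and a 12 h log2 ratio of -0.95. Kif18b, which trims astral microtubules, had 136, 128, 80.6 and 74.7, so most of its difference was present at 2 h (-0.75) and little was added by 12 h (-0.86). Kif20b, a kinesin-6 of cytokinesis, had 182, 143, 140 and 125 and a ratio of -0.54. Kifc1, a minus-end motor that focuses spindle poles, peaked at 101, just short of the higher floor, and had signals of 101, 78.3, 85.8 and 53.3 (-0.92). Kif15, which can stand in for Kif11 in the spindle, had signals of 23.6, 14.1, 16.1 and 24.9, at which the 12 h array was level with basal. Kif14, a motor of cytokinesis, was at or below 9.41. With the 6 motors of the comparison, 11 of the 12 kinesins of cell division were below basal at 12 h (median log2 ratio -0.85). Kif14 is among the 11, but it passed the floor on the basal array alone, so its ratio could not lie above 0. With signals raised to the higher floor, which leaves Kif14 out, 9 of 9 were below basal (median -0.82). The 26 other kinesins analysed had a median of -0.33, with 19 (73.1%) below basal, near the 63.0% of all genes and the 75.6% of those at the higher floor.

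Among the other transport kinesins 5 reached the higher floor, and all 5 stayed within 2-fold of basal at every time. Kif1c, which moves vesicles toward the cell edge, had signals of 574, 567, 495 and 421 (12 h ratio -0.45). Kif13a, a carrier of endosomal cargo, had 182, 182, 174 and 136 (-0.42), and Kif16b, a motor of early endosomes, had 291, 290, 253 and 230 (-0.34). By these probe sets the first 2 arrays of the 3 genes were nearly equal and the 12 h array was the lowest. A second bright probe set of Kif16b, 1429062_at, had signals of 150, 136, 103 and 85.1 (-0.82). Kif3c, an alternative partner in kinesin-2, had 207, 156, 167 and 190 (-0.13), lowest at 0.5 h. Kifc3, a minus-end motor found at cell junctions, had 118, 142, 127 and 138 (0.22) and was the only kinesin at the higher floor whose 12 h signal exceeded basal. With median centring, quantile normalization or loess Kif3c exceeded basal too (0.03, 0.11 and 0.11). Kif2a, a microtubule depolymerase outside the transport group, was the 18th gene at that floor, with signals of 494, 478, 433 and 396 (-0.32). It was counted with cilia, signalling and other roles, although Kif2c, which also disassembles microtubules, is among the mitotic motors. The counts and medians given for kinesins of cell division depend on this grouping, which was made with earlier results of these data known.

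Kinesins of low signal scattered in both directions. Kif5a, a neuronal heavy chain of conventional kinesin, fell 2.12-fold at 12 h with signals of 27.4, 19.1, 31.4 and 12.9. Kifc5b, which shares synonyms with Kifc1 in RefSeq, fell by at least 2.18-fold, with signals of 19.8, 16.04, 22.2 and 2.14. Whether its probes also detect Kifc1 was not tested. With any of the 3 scalings Kif5a no longer passed 2-fold, and with loess Kifc5b did not. Kif9, known from motile cilia, rose at least 2.42-fold at 12 h (5.58, 2.58, 22.6 and 21.9), and the neuronal motor Kif1a at least 2.29-fold (2.21, 15.97, 8.55 and 20.8). The other probe set of Kif1a, with signals of 15.7, 3.51, 3.32 and 21.7, had a 12 h ratio of 0.47. Kif7, a regulator of hedgehog signalling at the cilium, rose 2.31-fold at 0.5 h (15.5, 35.9, 34.0 and 28.8) and stood at a log2 ratio of 0.90 at 12 h, or 1.05 to 1.07 with the 3 scalings. Kifc2, a minus-end motor of neurons, rose 2.63-fold at 2 h (11.02, 17.7, 28.9 and 14.7). Between signals of 16 and 32 the scaled median absolute deviation of the 12 h ratio over all probe sets was 0.64, against 0.29 between 256 and 512.

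Kif24, which acts on the centriole, had signals of 54.8, 36.4, 36.8 and 27.4 and lay just inside the 2-fold limit at 12 h, at 1.9997-fold lower. Kif3b, the partner of Kif3a in kinesin-2, had 78.1, 95.3, 90.5 and 78.1 and was level with basal at 12 h. The remaining genes stayed within 2-fold of basal at every time and below the higher floor. They were Kif5c (54.0 to 97.2), Kif13b (43.7 to 67.3), Kif21a (38.6 to 51.9), Kif26b (13.1 to 42.7), Kif21b (20.3 to 32.3), Kif12 (18.2 to 31.6), Kif17 (15.4 to 30.2), Kif6 (15.3 to 25.9) and Kif27 (5.78 to 9.32). Kif26b changed by -1.17 from 0.5 to 2 h and so fell in that step, as did 2.97% of all genes. Kif26a, Kif28 and Kif2b lay at the floor on all 4 arrays.

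**Figure D4:**
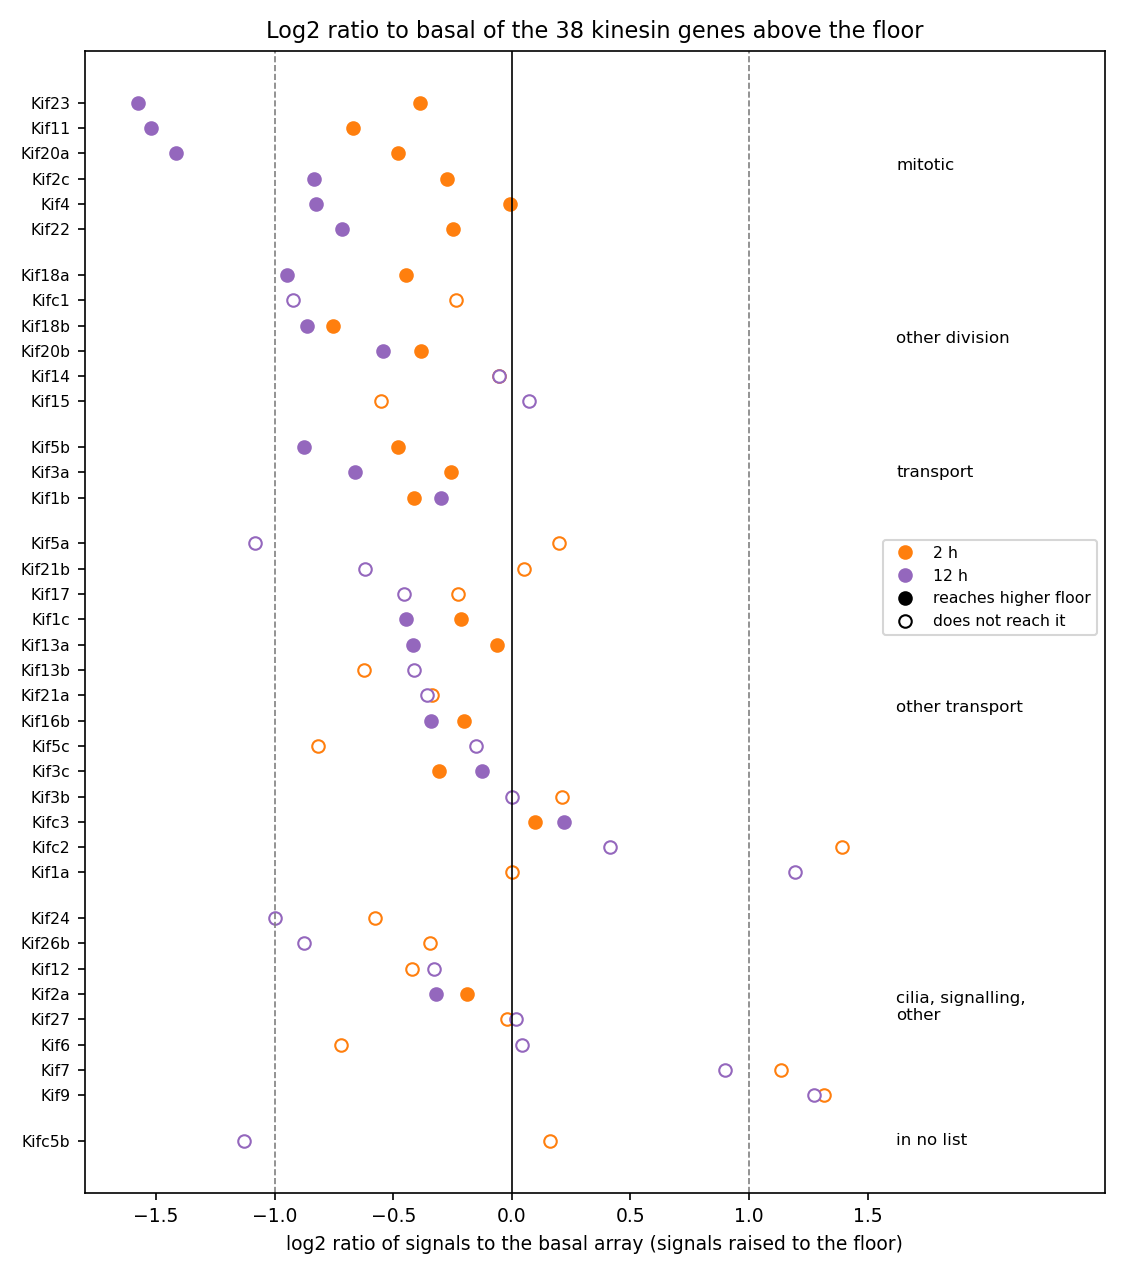
Log2 ratio of the signal at 2 h (orange) and 12 h (purple) to the basal array for the 38 kinesin genes above the floor, grouped by role, with dashed lines at 2-fold. Filled points reach the higher floor and open points do not. The 3 filled purple points beyond -1 are Kif23, Kif11 and Kif20a.

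Counted over the family, 38 of the 41 genes were above the floor on some array. At 0.5 h 0 of them fell and 1 rose, where 2.97% and 2.57% of all 16274 genes analysed did. At 2 h 0 fell and 3 rose (Kifc2, Kif9 and Kif7), against 3.62% and 2.59% of all genes. At 12 h 5 fell (Kif23, Kif11, Kif20a, Kif5a and Kifc5b) and 2 rose (Kif9 and Kif1a), against 5.18% and 2.81%. The median log2 ratio of the 38 genes was -0.07, -0.25 and -0.43 at the 3 times, beside -0.03, -0.09 and -0.14 over all genes. With signals raised to the higher floor 18 kinesins were left, of which 3 fell and 0 rose at 12 h, against 1.72% and 0.615% of 7314 genes. In the step from 2 to 12 h 1 of the 18 fell (Kif23) and 0 rose, against 0.479% and 0.137%. Of the 18, 0 rose or fell at 0.5 h (0.0137% of all genes fell, 0.328% rose), at 2 h (0.164% and 0.479%) or from 0.5 to 2 h (0.301% and 0.260%). Those 3, Kif23, Kif11 and Kif20a, passed 2-fold under each of the 4 other floor settings and the 3 scalings. Kif23 did not under the mean of its probe sets, which takes in the dim one, and 0 kinesins passed a 3-fold limit.

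The RNA of 13 of 14 genes whose proteins work with the mitotic motors was below basal at 12 h. All 14 reached the higher floor, where 75.6% of 7314 genes were below basal. This list and those below were drawn up with earlier results of these data known and are not independent of them. Of 14 partners of mitotic motors 10 fell and 0 rose, with a median log2 ratio of -1.15, beside 5.18% of all genes that fell. With signals raised to the higher floor 9 of the 14 fell, against 1.72% of 7314 genes. With quantile normalization or loess 5 of the 14 fell. Hmmr, a spindle assembly protein, went from 531 in basal cells to 466, 378 and 176 and fell 3.02-fold. Aurka, a kinase of spindle poles, went from 725 to 602, 460 and 254 and fell 2.86-fold. Birc5, a passenger complex subunit, went from 1028 to 998, 857 and 394 (2.61-fold). Cenpe, the kinesin of kinetochores whose symbol lies outside the Kif series, went from 172 to 178, 142 and 66.2 (2.60-fold). In each of these 4 genes the 12 h array was the lowest. Partners of single motors were lower too: Racgap1, which binds Kif23, fell 2.13-fold and Prc1, which binds Kif4, 2.04-fold, though neither passed 2-fold with any of the 3 scalings. Numa1, which gathers microtubules at spindle poles, stood at 0.14.

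Of 11 proliferation genes 5 fell at 12 h (Mki67, Ccnb2, Ccna2, Cdk1 and Top2a) and 0 rose, with a median of -0.88, beside 5.18% of all genes that fell. With any of the 3 scalings 3 of them fell (Mki67, Ccnb2 and Ccna2). Mki67, a marker of cycling cells, went from 616 to 597, 481 and 235 and fell 2.62-fold. The replication genes Pcna (-0.43), Mcm2 (-0.28) and Mcm5 (-0.56) stayed within 2-fold. From 2 to 12 h Mcm2 went from 432 to 467, while the 5 genes that fell were lowest at 12 h, as the mitotic motors were. The part of the proliferation genes in the result was not tested.

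For the other motor and track genes the counts past 2-fold at 12 h were near those over all genes, of which 5.18% fell and 2.81% rose, with a median of -0.14. The share below basal was 71.4% of cargo partners, 89.5% of dynein and dynactin genes and 69.2% of tubulins, beside 63.0% of all genes. Of 14 kinesin cargo partners 0 fell and 0 rose at 12 h, with a median of -0.19. Mapk8ip3, a scaffold that links cargo to kinesin, fell at 0.5 h (77.1, 34.6, 46.5 and 58.5), and Klc3, a light chain, rose at 2 h (29.9, 34.4, 68.3 and 48.0). Klc1, the light chain of conventional kinesin, went from 297 to 266, 290 and 278 (-0.09, and 0.06 to 0.15 with the 3 scalings). The lowest ratio, -0.85, was that of Kifbp, which binds and restrains several kinesins, and Kifap3, the non-motor subunit of kinesin-2, had -0.52. Of 19 genes of cytoplasmic dynein and dynactin, the motor that runs in the opposite direction, 0 fell and 0 rose, with a median of -0.11. Its heavy chain Dync1h1 went from 727 to 707, 762 and 842 (0.21). The lowest value, -0.85, was that of Nde1, a dynein regulator that also acts in mitosis. Of 13 tubulins 1 fell (Tubb4a, to a signal of 3.76) and 1 rose (Tuba8, to 31.4), and the median was -0.32. With signals raised to the higher floor 8 tubulins were left, with a median of -0.42, beside -0.19 over 7314 genes. Among tubulins of clear signal Tuba4a (-0.98), Tubb4b (-0.89) and Tubb6 (-0.84) were lowest, and Tubb2b (0.07) was level with basal.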

How the data were processed

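RNA of 3T3 cells (8 µg per array, per the labels' protocols) was read on 4 arrays, 1 per group. The authors deposited a linear intensity for each of 45101 probe sets. The sources used here give no signal algorithm, scaling or genome build. The 64 control probe sets were left out. Of the probe sets, 34945 had 1 gene in the annotation, 932 had several genes and 9160 had no entry. 104 probe sets named 1 kinesin gene, and 1 named Kif27 beside another gene and was not used. All 41 kinesin gene IDs were found in the RefSeq table of GRCm38.p6 and 0 symbols changed. Promoter windows come from RefSeq in that build.

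Signals were raised to the 30th percentile (9.07), and genes at the floor on all arrays were left out, which left 16274 of 18193. Ratios were taken from the deposited values with no scaling, and a fold with 1 side at the floor is written "at least". A gene was called at 2-fold. No test was possible with 1 array per group. The number of arrays limits the precision. Alternatives were floors at the 20th, 50th and 75th percentile or none, median centring, quantile normalization, cyclic loess (limma 3.58.1, R 4.3.3), the mean of probe sets, 1.5-fold and 3-fold limits and, added after the data were seen, no _s_at or _x_at probe sets. The code (Python 3.11.15, pandas 2.3.3) was tested on simulated data. All kinesins are named, with signals for the 9 motors compared, for those reaching the higher floor and for those past 2-fold. Up to 4 members of each other list were named by largest change, and others were picked after their values were seen. The members and all lists were chosen with earlier results of these data known.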

Additional observations from a re-analysis of the deposited data

How the results depend on the processing

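The fall of Kif11 and Kif20a at 12 h was present under each of the 9 alternatives that give a ratio, of which 3 (a floor at the 20th percentile, one at the 50th, none) could not change these genes, and that of Kif23 under all but the mean of probe sets. Counts of few genes moved with most settings. At 12 h 5 kinesins fell as reported, against 3 with a floor at the 50th or 75th percentile, 3 with loess, 16 at 1.5-fold and 0 at 3-fold, and 2 rose, against 0 with either of those floors and 0 at 3-fold. In the step from 2 to 12 h 3 fell and 1 rose as reported, against 1 and 0 with either of those floors, 9 and 4 at 1.5-fold and 0 and 0 at 3-fold. With no floor 5 fell in that step, and with the mean of probe sets 2 rose. At 2 h 0 fell and 3 rose as reported. The number that rose was 0 with either floor or at 3-fold and 6 with no floor, and the number that fell was 2 with the mean of probe sets and 5 at 1.5-fold. At 0.5 h 0 fell and 1 rose. The number that rose was 2 with a floor at the 20th percentile or none, 0 with a floor at the 50th or 75th or at 3-fold and 4 at 1.5-fold. The number that fell was 1 with no floor, 3 with the mean of probe sets and 3 at 1.5-fold.

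The mitotic median minus the transport median at 2 h was 0.08 as reported and 0.29 with the mean of probe sets. At 12 h it was -0.46, and -0.72 without _s_at and _x_at probe sets. Of the partners of mitotic motors 10 fell as reported, 5 with quantile normalization or loess and 1 at 3-fold. Of the proliferation genes 5 fell, 3 with median centring, quantile normalization or loess and 0 at 3-fold. Of dynein and dynactin genes 0 fell, 1 with a floor at the 20th percentile or none and 2 at 1.5-fold. Of cargo partners 0 fell, and 2 at 1.5-fold. Of tubulins 1 fell, 0 with a floor at the 50th or 75th percentile and 4 at 1.5-fold. Floors and fold limits change these counts by their construction, and for the scalings and the mean of probe sets the cause was not tested. No paired analysis was possible because each group has 1 array. Low signals limit what can be said of the 20 kinesins above the floor that did not reach the higher one.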
